A study of Homo sapiens with 2 samples.

Results

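Epithelial-mesenchymal transition (EMT) is a change of state in which epithelial cells loosen their junctions and take up traits of migratory mesenchymal cells, and TGF-β is among its best known inducers. The transition is read from 10 genes here: the transcription factors SNAI1, SNAI2, ZEB1, ZEB2 and TWIST1, the epithelial cadherin CDH1, and the mesenchymal markers CDH2, VIM, FN1 and NT5E. The members are all probe sets that the platform annotation assigns to 1 of these symbols, 29 of 54613 probe sets that are not controls, and 10 of 19775 genes. The SNAI and ZEB factors are zinc finger repressors and TWIST1 is a basic helix-loop-helix factor. All of them bind E-boxes, short DNA elements that also lie in the CDH1 promoter, and loss of E-cadherin releases neighbouring epithelial cells from each other.

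A549, an established line derived from a human lung carcinoma and grown here as monolayers in serum-containing medium, was cultured for 12 h with 1 ng/ml TGF-β (the TGF-β group) or without it (the control group). RNA of each culture was hybridized to 1 Affymetrix expression array, so there was 1 array per group. No difference below has a replicate check or a p-value, and precision is limited by the number of arrays. Values are MAS5 signals, linear intensities that combine the probe pairs of a probe set, and a fold is the TGF-β signal over the control signal unless a fall is named.

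The 2% trimmed mean was 500.1 on both arrays and the median was 49.3 with TGF-β and 51.0 in the control. The background level was taken as the highest of 27 probe sets for Bacillus subtilis transcripts, 56.6 on the TGF-β array and 45.8 on the control array. The 3′ to 5′ signal ratio was 0.957 with TGF-β and 0.945 in the control for GAPDH, and 1.83 with TGF-β and 1.99 in the control for ACTB. Probe sets were kept when their mean signal over both arrays reached the median of 48.7, and the brightest of these stood for its gene, which gave 12375 genes. Genes whose signals were at least 2-fold apart are called higher or lower, by size alone and with no test. The spread of log2 fold changes over the 500 kept probe sets nearest in brightness is given beside the members and is no spread between replicates. Of the 6 markers of lung epithelium (EPCAM, KRT7, KRT8, KRT18, KRT19 and CDH1), all were above background on both arrays. Of 8 fibroblast markers, 7 did not pass the filter, among them PDGFRA, DCN, LUM and COL3A1, and the other, THY1, read 21.8 with TGF-β and 82.5 in the control. For 6 immune and 5 endothelial markers, 2 and 1 passed the filter. The largest difference among them was that of CD14, with 63.0 with TGF-β and 191 in the control.

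Promoter sequences of RefSeq (GRCh38.p14) were matched by symbol for 6 members, ZEB1, ZEB2, CDH2, VIM, FN1 and NT5E, each spanning 250 bases before and 50 bases after the annotated start. SNAI1, SNAI2, TWIST1 and CDH1 had no match. The E-box form bound by SNAI and ZEB factors, CACCTG on either strand (CAGGTG on the other), is a special case of the general E-box CANNTG. It occurred in 20.6% of 27305 promoters of this length, and among the 6 members in that of ZEB1 alone, with its first base 57 bases before the start. The general form occurred in 68.9% of promoters, and in those of ZEB1 and ZEB2 among the 6. The Smad-binding pentamer CAGAC, or GTCTG on the other strand, occurred in 45.0% of promoters and among the 6 only in that of CDH2, which held 2, as many or more being found in 13.0% of promoters. The palindromic cAMP response element TGACGTCA, which CREB-type factors can bind, occurred in 1.98% of promoters and among the 6 in that of FN1, starting 183 bases before the start. A match is a run of letters and not a measured binding site. The 200 bases before the start are shown for FN1 and NT5E, the markers with rises of at least 2-fold, and for ZEB1, which holds the E-box. Capitals mark TGACGTCA in FN1 and CAGGTG in ZEB1, and NT5E has none of the motifs named above in this stretch. Positions are chr2:215436069-215436268, minus strand, for FN1, chr6:85449883-85450082, plus strand, for NT5E, and chr10:31318217-31318416, plus strand, for ZEB1.
FN1: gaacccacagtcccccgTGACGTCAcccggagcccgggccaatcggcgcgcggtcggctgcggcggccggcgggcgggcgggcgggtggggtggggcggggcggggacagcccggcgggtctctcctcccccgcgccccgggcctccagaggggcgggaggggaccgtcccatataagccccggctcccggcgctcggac
NT5E: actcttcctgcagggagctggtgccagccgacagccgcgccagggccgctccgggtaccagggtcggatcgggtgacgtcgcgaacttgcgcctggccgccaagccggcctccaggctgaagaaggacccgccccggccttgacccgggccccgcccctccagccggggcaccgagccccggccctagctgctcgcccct
ZEB1: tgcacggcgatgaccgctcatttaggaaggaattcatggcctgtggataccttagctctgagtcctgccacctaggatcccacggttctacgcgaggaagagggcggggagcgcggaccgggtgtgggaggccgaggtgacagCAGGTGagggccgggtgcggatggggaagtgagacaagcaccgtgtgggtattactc

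After 12 h with TGF-β, the signals of SNAI2, FN1 and NT5E were at least 2-fold higher and that of CDH1 was at least 2-fold lower, while SNAI1, ZEB1, CDH2 and VIM differed by less. Of the 10 members, 8 had a probe set that passed the filter on dim signals, and 3 of these were called higher, beside 3.94% of the 12375 genes. A single member, CDH1, was called lower, beside 2.96% of all genes. SNAI2 passed the filter only through its TGF-β signal, so its place among the 8 depends on the difference itself. ZEB2 and TWIST1 did not pass, and all of their probe sets were at background on both arrays. Over the 29 probe sets of the members, 18 had both signals above background. In 17 of these the TGF-β signal exceeded the control signal by some amount, and in that of CDH1 it was below. The only ones at least 2-fold higher were those of FN1 and NT5E, genes already called higher above. The TGF-β signal exceeded the control signal in 47.3% of the 24737 probe sets of the array with both above background, and 12 of the 18 belong to ZEB1, FN1 and NT5E, so they are not separate genes. A further 9 probe sets were at background on both arrays, and for 2 only the control signal was.

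**Figure D1:**
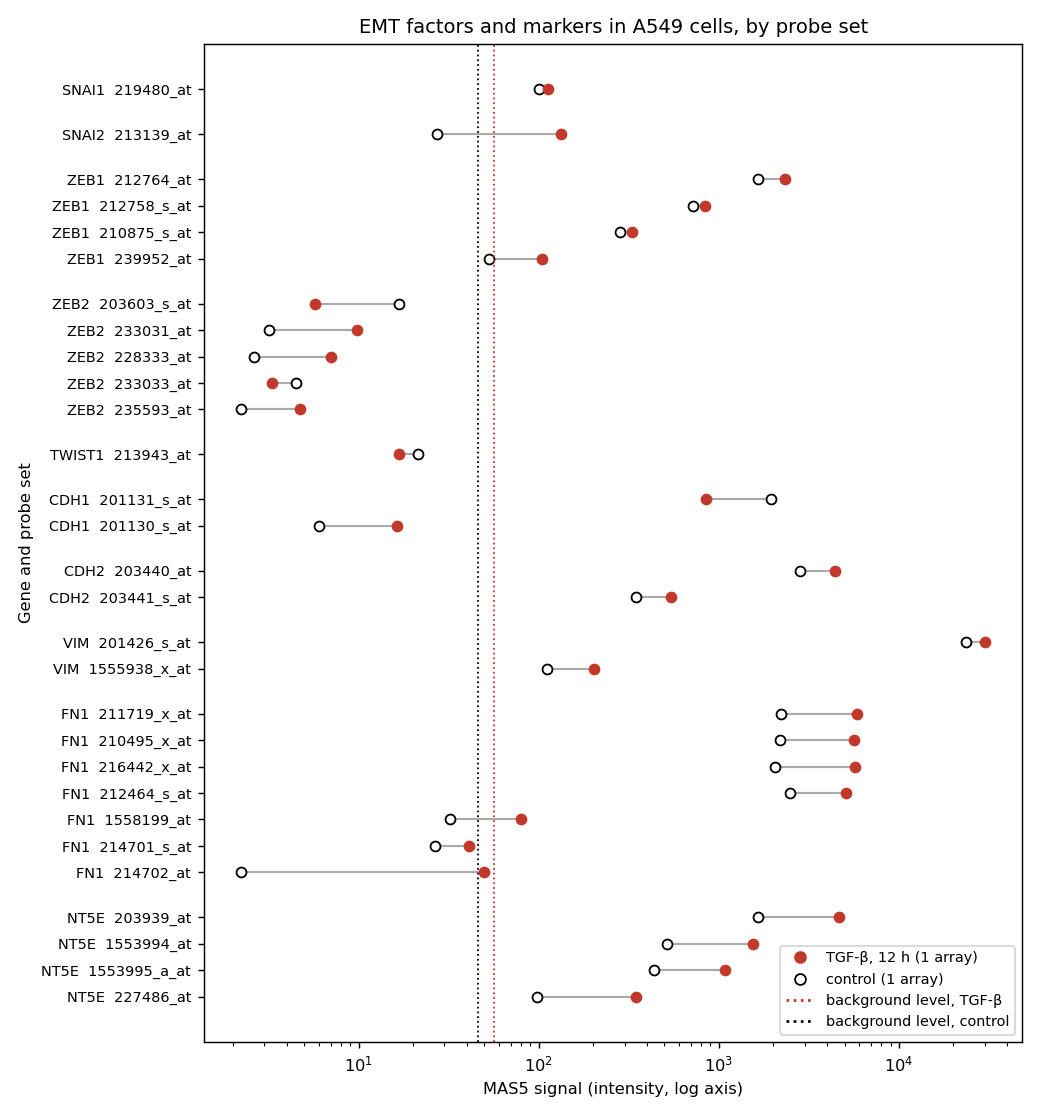
MAS5 signals (x axis, log scale) of the 29 probe sets of the 10 genes (y axis) with TGF-β (red points) and in the control (open points), 1 array each, with dotted lines at the background level of 56.6 with TGF-β (red) and 45.8 in the control (black). All 4 probe sets of NT5E and the 4 brightest of FN1 lie further right with TGF-β, the bright CDH1 probe set lies further left, and the ZEB2 and TWIST1 probe sets lie below background on both arrays.

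Among the transcription factors, SNAI2, which encodes the repressor Slug, was the only one called higher. Its single probe set read 133 with TGF-β and 27.4 in the control. The control signal was below the background level, and against that level the rise was at least 2.90-fold. The log2 ratio of the signals as deposited was 2.28, and the spread at this brightness was 0.64, the widest among the members.

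SNAI1, which encodes Snail, a direct repressor of CDH1 transcription, was not called. It was measured by a single probe set that read 113 with TGF-β and 100.1 in the control. The log2 fold change of 0.17 was smaller than the spread of 0.48 at this brightness, with both signals above background.

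ZEB1, a zinc finger and homeodomain repressor of epithelial genes, was above background on both arrays for each of its 4 probe sets. The brightest read 2344 with TGF-β and 1658 in the control, a log2 fold change of 0.50 at a spread of 0.28. The next read 842 with TGF-β and 720 in the control. The third read 331 with TGF-β and 284 in the control. The dimmest read 105 with TGF-β and 52.9 in the control, close to background and 1.98-fold apart. All 4 were higher with TGF-β, by 1.17-fold to 1.98-fold, and none reached 2-fold.

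ZEB2, the paralog of ZEB1, had 5 probe sets, all at background, with signals from 3.30 to 9.86 with TGF-β and from 2.23 to 16.8 in the control. TWIST1, known for its part in mesoderm formation and metastasis, read 16.8 with TGF-β and 21.4 in the control on its single probe set, again at background. No fold is given for either gene, and expression below this level was not detectable on these arrays.

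CDH1 encodes E-cadherin, the adhesion molecule of epithelial adherens junctions. Its bright probe set read 846 with TGF-β and 1952 in the control. The CDH1 signal was thus 2.31-fold lower with TGF-β, at 43.4% of the control, and the log2 fold change was -1.21 at a spread of 0.29. In RNA of a whole culture, fewer cells with the transcript and less of it per cell cannot be told apart. Among the 11513 genes with both signals above background, this fall ranked 79. The other CDH1 probe set was at background on both arrays, with 16.4 with TGF-β and 6.06 in the control, so the fall rests on 1 probe set whose name (suffix _s_at) marks possible shared targets.

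CDH2 encodes N-cadherin, which takes the place of E-cadherin in mesenchymal and neural cells. Its brighter probe set read 4418 with TGF-β and 2843 in the control, and its dimmer one 540 with TGF-β and 348 in the control. The folds of 1.55 were the same to 3 digits on both probe sets, and the log2 fold change of the brighter was 0.64 at a spread of 0.21. CDH2 was well above background in the control, and its rank among rises was 817. The log2 fold change of CDH2 exceeded that of CDH1 by 1.84, so the ratio of CDH2 to CDH1 signal was 3.58-fold higher with TGF-β than in the control.

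VIM encodes vimentin, the intermediate filament protein of mesenchymal cells. Its bright probe set read 30220 with TGF-β and 23706 in the control, a 1.27-fold difference. The log2 fold change was 0.35, the spread at this brightness was 0.10, and the median of the 500 probe sets nearest in brightness was 0.15. A dimmer probe set, with a suffix (_x_at) that marks possible binding of other transcripts, read 203 with TGF-β and 112 in the control, 1.82-fold apart. Neither probe set reached 2-fold.

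FN1 encodes fibronectin, a glycoprotein of the extracellular matrix that cells bind through integrins. The brightest of its 7 probe sets read 5855 with TGF-β and 2226 in the control, 2.63-fold higher, and the log2 fold change was 1.40 at a spread of 0.21. The second read 5615 with TGF-β and 2185 in the control. The third read 5695 with TGF-β and 2057 in the control. The fourth read 5114 with TGF-β and 2492 in the control. These 4 were between 2.05-fold and 2.77-fold higher, but they were read from the same arrays and are not replicates. All carry suffixes that mark possible shared targets, and they may read overlapping stretches of the transcript. The fifth read 79.6 with TGF-β and 32.3 in the control, at least 1.74-fold higher against background, and the last 2 were at background on both arrays. The rise of FN1 ranked 152 among the 11513 genes.

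NT5E encodes CD73, the cell surface enzyme that makes adenosine from AMP and a marker of mesenchymal stromal cells. It had the largest rise among the members with both signals above background, and ranked 128 among the 11513 genes. Its brightest probe set read 4678 with TGF-β and 1658 in the control, 2.82-fold higher, and the log2 fold change was 1.50 at a spread of 0.26. The second read 1559 with TGF-β and 516 in the control, and the third 1084 with TGF-β and 437 in the control. The dimmest read 346 with TGF-β and 98.1 in the control, the largest fold of the 4 at 3.52. All 4 were called higher, by 2.48-fold to 3.52-fold, and 3 of them carry no mark of shared targets. No other gene of the 10 was called higher on more than 1 probe set without such a mark.

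**Figure D2:**
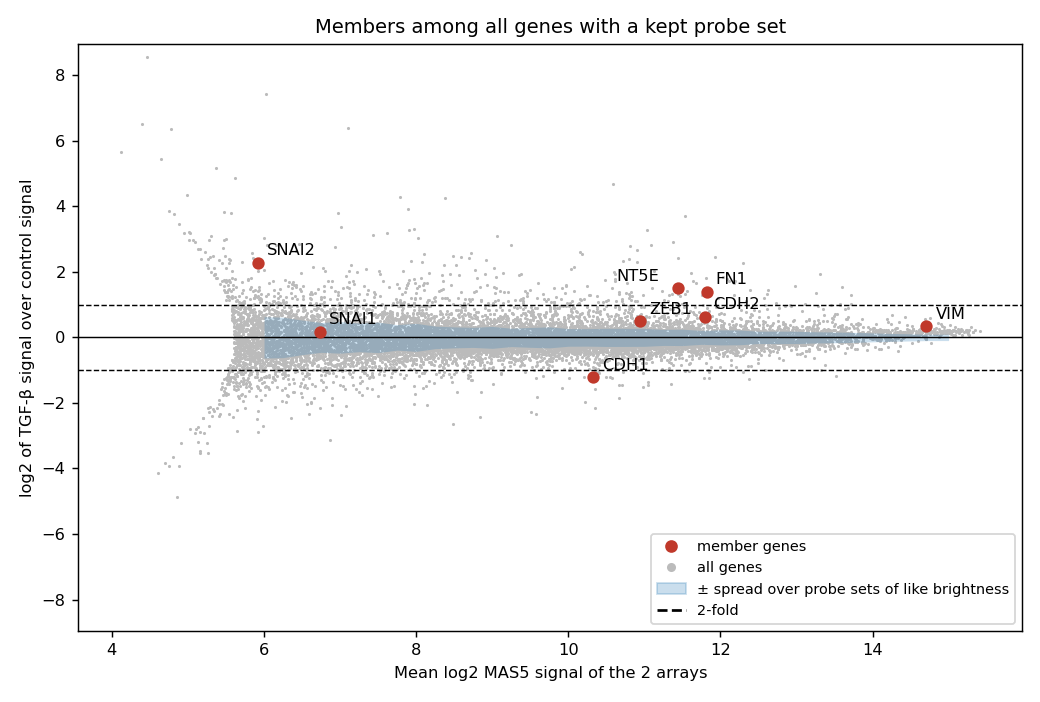
The log2 ratio of TGF-β over control signal (y axis) against the mean log2 signal of both arrays (x axis) for 12375 genes (grey) and the 8 members with a kept probe set (red), with dashed lines at 2-fold and a blue band of 1 spread over probe sets of like brightness. NT5E, FN1 and SNAI2 lie above the upper 2-fold line, CDH1 lies below the lower one, and SNAI1 lies inside the band.

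Of 18 other transcription factors linked to EMT, 12 were kept, 2 were called higher and none lower, beside 3.94% higher and 2.96% lower over all genes. Their log2 fold changes were above 0 in 10 of the 12, and the median log2 fold change was 0.66, beside -0.03 over all 12375 genes. SOX4, a factor of the SRY-related HMG box family, read 8472 with TGF-β and 2562 in the control, a 3.31-fold rise, and 3 further probe sets gave 2.86-fold to 4.19-fold. The remaining SOX4 probe sets were dim, and one of them went the other way, with 11.8 with TGF-β, at background, and 63.8 in the control. HMGA2, an architectural chromatin protein that cooperates with Smads at the SNAI1 gene, read 319 with TGF-β and 143 in the control, a 2.23-fold rise. All other HMGA2 probe sets were at background on both arrays, so the call rests on the brightest alone. TWIST2, a paralog of TWIST1, read 173 with TGF-β and 261 in the control.

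None of the measured partners of the cadherins was called lower. Of 12 listed genes of the cadherin-catenin and nectin complexes, 8 were kept and 1 was called higher, and the log2 fold changes of all 8 were above 0, with a median of 0.56. Over all genes, 5621 of 12375 were above 0, and 3.94% were called higher and 2.96% lower. Plakoglobin (JUP), which binds the tails of cadherins, read 1698 with TGF-β and 774 in the control, a 2.19-fold rise on its single probe set. β-catenin (CTNNB1), which links cadherins to α-catenin, read 13833 with TGF-β and 9385 in the control, and α-catenin (CTNNA1) 11057 with TGF-β and 7652 in the control, both under 2-fold. Of 20 other cadherins, 7 were kept. CDH15 alone was called higher, with 74.6 with TGF-β and 36.7 in the control, a control signal at background that bounds the rise at 1.63-fold or more. CDH15 passed the filter only through its TGF-β signal. CDH11, a mesenchymal cadherin, read 192 with TGF-β and 104 in the control.

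Epithelial genes as a group were spread to both sides. Of 39 listed, 28 were kept, 2 were called higher and 4 lower, and the median log2 fold change was -0.05. Over all genes, 3.94% were called higher and 2.96% lower. EHF, an epithelial ETS factor, read 143 with TGF-β and 901 in the control, 6.28-fold lower. The receptor ERBB3 read 565 with TGF-β and 1640 in the control, 2.90-fold lower, and a second probe set gave 3.24-fold, while a dim one read 65.5 with TGF-β and 33.3, at background, in the control. Occludin (OCLN), a tight junction protein, read 278 with TGF-β and 610 in the control, and dimmer OCLN probe sets were 2.22-fold and 1.30-fold lower. The junction scaffold TJP3 read 33.2 with TGF-β, at background, and 96.2 in the control, and passed the filter only through its control signal. Its fall was thus at least 1.70-fold, and only 3 of the 4 reached 2-fold by the bound. The higher genes were CLDN4, a claudin with 248 with TGF-β and 6.91 in the control, and OVOL2, a zinc finger repressor of EMT with 104 with TGF-β and 35.9 in the control. Both control signals were at background, so the rises were at least 5.42-fold and at least 2.27-fold. The other probe set of each gene was at background on both arrays, so each call rests on a single probe set. Both genes passed the filter only through their TGF-β signals, so their place among the 28 depends on the differences themselves. The keratins KRT8 and KRT18 differed by 1.17-fold and 1.13-fold, and EPCAM read 1616 with TGF-β and 2176 in the control.

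Of 44 mesenchymal genes other than the members, 32 were kept, 10 were called higher and 1 lower, with a median log2 fold change of 0.47. Over all genes, 3.94% were called higher and 2.96% lower. Of the 32, 25 had log2 fold changes above 0 and 7 below. The 7 include ACTA2, with 112 with TGF-β and 178 in the control, and FBLN1, with 117 with TGF-β and 224 in the control. COL1A1, a chain of type I collagen, read 10680 with TGF-β and 821 in the control on its brightest probe set, while its other probe sets above background gave 5.44-fold and 1.17-fold. The collagen crosslinking enzyme LOX read 168 with TGF-β and 11.8 in the control, at least 3.66-fold higher, and the ligand WNT5B 123 with TGF-β and 2.46 in the control, at least 2.69-fold higher. LOX and WNT5B passed the filter only through their TGF-β signals, so their place among the 32 depends on the differences themselves. Both were named by the ratio of signals as deposited. The other WNT5B probe sets were at background on both arrays. CCN2, at 9.69-fold, and COL5A1, at 4.06-fold, rose by more than these bounds, with both signals above background. The gene called lower was THY1, another marker of mesenchymal stromal cells, whose TGF-β signal was at background. Its fall was thus at least 1.46-fold and did not reach 2-fold by the bound. THY1 passed the filter only through its control signal. The list holds COL1A1 and CCN2, and the epithelial list CLDN4, which the study had picked from these arrays, so their directions are not independent evidence. Nor are those of the other list genes, because all lists were chosen with earlier results of these data known. COL1A2 and COL3A1, collagens of fibroblasts, did not pass the filter.

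Fibronectin is bound and assembled into fibrils by integrins, syndecans and their adaptors. Of 16 such genes, 11 were kept, 5 were called higher and none lower, with a median log2 fold change of 0.86. Over all genes, 3.94% were called higher and 2.96% lower. Syndecan 4 (SDC4), a heparan sulfate coreceptor, read 3910 with TGF-β and 1479 in the control, 2.64-fold higher. The syndecan SDC2 went the other way, with 66.0 with TGF-β and 123 in the control. Tensin 1 (TNS1), of fibrillar adhesions, was 2.44-fold higher, with 1934 with TGF-β and 793 in the control, and its other probe sets above background gave 1.61-fold to 2.52-fold. Transglutaminase 2 (TGM2), the integrin chain ITGAV and the integrin chain ITGA5 were just past the rule at 2.08-fold, 2.03-fold and 2.02-fold. ITGA5 is also counted among the mesenchymal genes above. Dimmer TGM2 probe sets gave 1.70-fold and 1.87-fold, short of the rule. ITGB1, the β chain of the main fibronectin receptor, read 32273 with TGF-β and 26429 in the control, a difference under 2-fold.

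The lists around NT5E, VIM and the repressors are set beside 3.94% of all genes called higher and 2.96% called lower. Of 15 listed genes for purine enzymes at the cell surface or elsewhere, nucleoside transporters, adenosine receptors and DPP4, 8 were kept and none was called. Adenosine deaminase (ADA) had the largest difference, with 1229 with TGF-β and 658 in the control, while the adenosine receptor ADORA2B read 576 with TGF-β and 1022 in the control. Of 9 genes whose products partner or resemble vimentin, among them nuclear lamins and plectin (PLEC), 6 were kept. Peripherin (PRPH) alone was called, with 73.5 with TGF-β and 147 in the control, at the 2-fold limit. Of 21 corepressors that SNAI and ZEB factors recruit, 21 were kept, with a median log2 fold change of 0.01. LIMD1, a LIM domain protein, was called lower, with 1176 with TGF-β and 2438 in the control, and a dimmer probe set was 2.11-fold lower, with 64.8 with TGF-β and 137 in the control, while another read 141 with TGF-β and 111 in the control. Of 12 genes that control SNAI1 protein turnover, 11 were kept and none was called. FBXL14, a ubiquitin ligase subunit for SNAI1, had the largest difference, with 1075 with TGF-β and 1706 in the control.

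**Figure D3:**
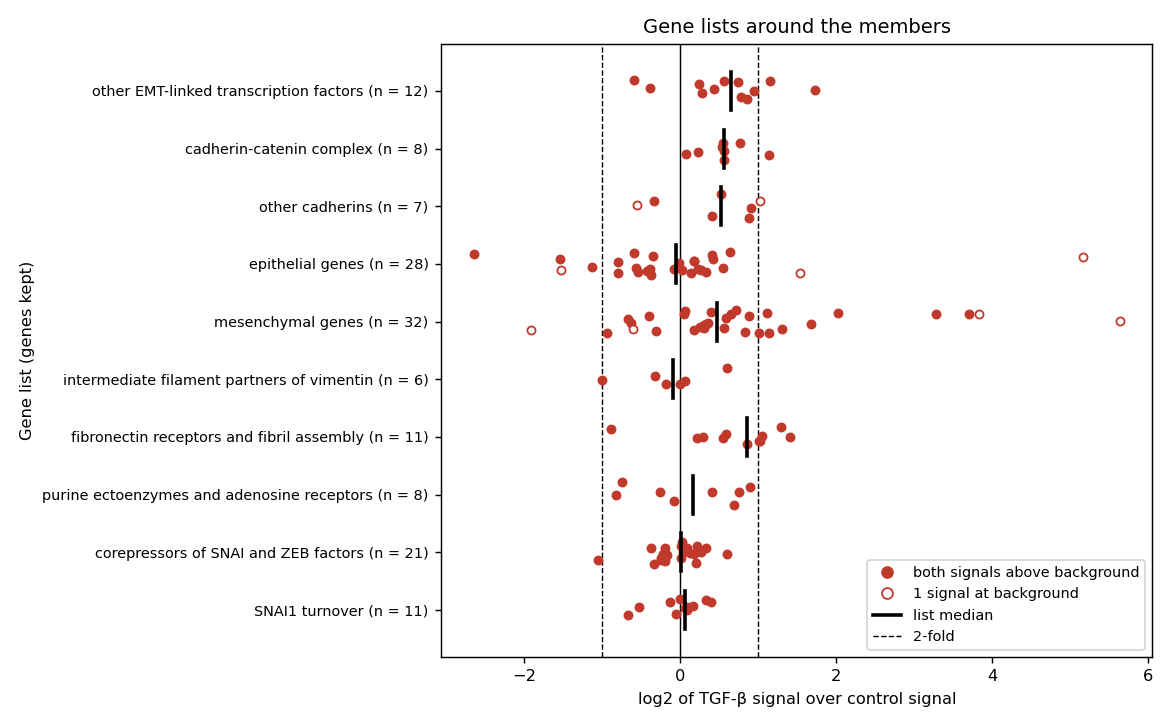
The log2 ratio of TGF-β over control signal (x axis) of the kept genes of 10 lists (y axis), as filled points where both signals were above background and open points where 1 was not, with black bars at the list medians and dashed lines at 2-fold. The median is 0.86 for fibronectin receptors and assembly genes, 0.47 for mesenchymal genes and -0.05 for epithelial genes.

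**Figure D4:**
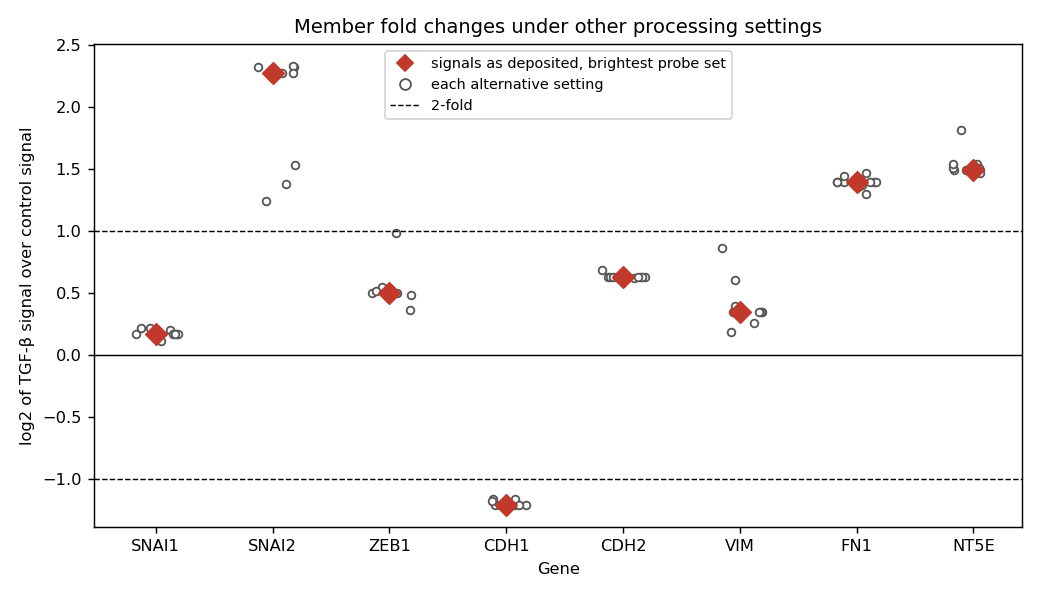
The log2 ratio of TGF-β over control signal (y axis) of the 8 kept members (x axis) with signals as deposited and the brightest probe set (red diamonds) and under each of up to 12 alternative settings (open points), with dashed lines at 2-fold. No member crosses 0 or the 2-fold line under any alternative that gave it a value, and the widest spans are those of SNAI2, down to 1.24, and VIM, between 0.19 and 0.86.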

How the data were processed

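The deposited values are linear intensities, 1 MAS5 signal per probe set and array, with MAS5 named in the submitters' processing notes without a version. Each array had been scaled to a 2% trimmed mean of 500.1. Other settings of the array analysis were not given in the sources used here. The signals were used as deposited, and ratios and their log2 values were taken with Python 3.11.15, numpy 2.4.6, pandas 2.3.3 and statsmodels 0.14.6. Symbols came from the platform annotation, updated through gene identifiers of RefSeq. Of 54613 probe sets, 41091 had 1 symbol, 1801 had several and 11721 were unnamed, and only those with 1 symbol entered gene counts. Where the dimmer signal was at background, the ratio was formed with that level instead and stands as a lower bound against that level alone. The spread is 1.4826 times the median absolute deviation. The code of the 2-fold rule was run on simulated signals with planted changes well past 2-fold. That run did not check calls close to 2-fold or the variation between cultures.

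The members and lists were chosen with earlier results of these data known. All members were named, and per list the 3 largest rises and 3 largest falls past 2-fold, or else the largest difference. Size was ranked by the ratio of the signals as deposited, also where 1 signal was at background. Other named list genes, and the motifs CAGAC and TGACGTCA, were chosen after values or sequences had been seen. The 12 alternatives were no filter, a stricter filter on the mean signal (349, its 75 percentile), floors at 3 levels of each array (25 percentile, median, background), 50 added to all signals, 3 scalings (medians, quantiles, loess with span 0.3), and 3 other choices of probe set per gene. With 1 array per group no test was run.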

Additional observations from a re-analysis of the deposited data

How the results depend on the processing

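Alternative settings test the processing and not the variation of cultures. No paired analysis was possible because each group has 1 array. Among the member log2 fold changes, SNAI2 (2.28) was 1.39 with a floor at the array median, 1.54 with a floor at background and 1.24 with the offset, settings that raise its dim control signal by construction. VIM (0.35) was 0.19 after quantile normalization, 0.86 on the most changed probe set and 0.61 by the median over probe sets. On the most changed probe set NT5E (1.50) was 1.82 and ZEB1 (0.50) was 0.99. CDH1 lay between -1.21 and -1.16, FN1 between 1.30 and 1.47, CDH2 between 0.63 and 0.69 and SNAI1 between 0.12 and 0.22. Between 2 and 3 members were called higher, with SNAI2 lost to the stricter filter. The 1 called lower became 2 without the filter, through a ZEB2 probe set at background, and 0 without shared-target probe sets, which leave CDH1 and VIM no value. Over all genes, the 487 higher and 366 lower were 2110 and 2395 when no filter was set, 197 and 63 under the stricter one, and 295 and 134 with the offset. The lower count was 204 with a floor at background and 596 on the most changed probe sets. The median of other cadherins (0.52) was -0.33 with the stricter filter, that of the purine genes (0.16) was -0.54 on the most changed probe sets and -0.38 by the median over probe sets, that of lung epithelial markers (-0.12) was 0.28 without shared-target probe sets, and that of all fibroblast markers was -0.18 without the filter. With the filter that list is THY1 alone, at -1.92 as deposited, with its TGF-β signal at background, and at -0.74 and -0.54 with floors at the array median and at background. Filters change which genes are kept; for the remaining shifts the cause was not tested. Low signal over background limits SNAI2, ZEB2 and TWIST1.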
